A study of Homo sapiens with 4 samples.

Results

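Very wide cohesin peaks of the HG00731 lymphoblastoid cell line (LCL) are described here. They were the SMC1 peaks on chromosomes 1 to 22 that were chosen by their width of at least 2500 bp, and 433 of 94628 SMC1 peaks (0.458%) met this rule. SMC1 is a subunit of the cohesin ring. The SMC1 peaks came from FA-EGS HiChIP, in which chromatin was fixed with formaldehyde and then with the longer cross-linker EGS, and the CTCF peaks came from HiChIP with formaldehyde alone. No treatment or genetic change separated the samples. Both targets were measured in 2 biological replicates of 1 cell line, which the authors pooled before calling, so each target had 1 peak list and 1 loop list. No value therefore has a spread between replicates, and no comparison below has a test. Intervals are at 95% and cover counting error only.

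Cohesin is loaded onto chromosomes and reels in DNA, which forms a growing loop. The DNA-binding protein CTCF stops this movement when cohesin meets it from the side of its N-terminus, so both ends of a stable loop often carry CTCF sites that point towards each other. In ChIP data many cohesin peaks are narrow and centred on a CTCF site, and cohesin is also found at active promoters and enhancers. HiChIP reads both features, because immunoprecipitated fragments give peaks and ligated pairs of fragments give loops between bins of 5 kb. LCLs are B cells immortalized with Epstein-Barr virus and carry an activated B cell programme.

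The cell type was checked on genes of known lineages. All 10 B cell marker genes had an SMC1 peak of any width within 1 kb of a start, compared with 6 of 13 T cell markers, 4 of 11 myeloid markers, 6 of 14 non-blood markers and 64.2% of 18773 protein-coding genes. An SMC1 peak at a start is not a level of expression.

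The reference sequence (hg38, plus strand) of 300 bases around the summit is shown for members at both ends of the description, the widest and the most enriched. Windows that touched an annotated exon were passed over. Capitals mark a match of at least 10 bits to a 19-bp CTCF motif that was learned from the CTCF summits of the same cell line. A match whose G-rich strand is the plus strand is called forward, and the opposite is called reverse.

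The widest member lay in an intron of ANXA6 and had no match in this window, chr5:151125711-151126010.

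ANXA6 intron: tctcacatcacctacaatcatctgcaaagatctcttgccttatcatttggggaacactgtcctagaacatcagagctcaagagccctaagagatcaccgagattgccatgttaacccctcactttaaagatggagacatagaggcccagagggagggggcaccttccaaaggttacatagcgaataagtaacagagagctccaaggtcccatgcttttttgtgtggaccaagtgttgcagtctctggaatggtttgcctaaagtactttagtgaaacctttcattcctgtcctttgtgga

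The third widest member lay in an intron of CNBD2 and had a forward match of 16.4 bits, chr20:35992797-35993096.

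CNBD2 intron: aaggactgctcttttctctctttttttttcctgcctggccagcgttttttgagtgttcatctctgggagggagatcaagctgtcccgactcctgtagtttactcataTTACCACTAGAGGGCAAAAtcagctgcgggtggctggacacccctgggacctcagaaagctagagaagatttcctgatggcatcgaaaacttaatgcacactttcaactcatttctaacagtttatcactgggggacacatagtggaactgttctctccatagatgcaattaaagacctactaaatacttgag

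The fourth widest, in an intron of the noncoding gene LINC02694, had a reverse match of 16.7 bits, chr15:38690801-38691100. Its CTCF summit lay 271 bp from the SMC1 summit, so this match is not among those counted at CTCF summits further on.

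LINC02694 intron: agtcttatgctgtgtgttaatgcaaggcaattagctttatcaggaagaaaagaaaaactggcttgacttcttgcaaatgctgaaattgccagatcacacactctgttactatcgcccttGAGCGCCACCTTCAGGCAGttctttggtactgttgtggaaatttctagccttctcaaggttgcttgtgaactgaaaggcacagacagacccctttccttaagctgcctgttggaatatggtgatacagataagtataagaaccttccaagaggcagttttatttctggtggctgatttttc

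The member with the highest fold enrichment lay between genes, 11411 bp from the start of POU3F2, and had no match, chr6:98845835-98846134.

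POU3F2 region: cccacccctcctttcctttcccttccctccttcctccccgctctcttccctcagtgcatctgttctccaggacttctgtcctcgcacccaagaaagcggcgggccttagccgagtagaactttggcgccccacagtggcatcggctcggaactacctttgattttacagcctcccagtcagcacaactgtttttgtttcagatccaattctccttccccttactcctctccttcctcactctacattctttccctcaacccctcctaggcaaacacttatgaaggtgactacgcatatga

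The second highest, 75174 bp from the start of TMEM244, had a reverse match of 15.5 bits, chr6:129936571-129936870.

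TMEM244 region: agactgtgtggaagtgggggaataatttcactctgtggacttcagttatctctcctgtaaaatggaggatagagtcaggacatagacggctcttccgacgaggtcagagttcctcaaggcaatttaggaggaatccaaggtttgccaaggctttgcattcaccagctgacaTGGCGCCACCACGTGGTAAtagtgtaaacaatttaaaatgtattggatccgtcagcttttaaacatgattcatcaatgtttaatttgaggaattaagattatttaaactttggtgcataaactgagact

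The third highest differed from the other windows in kind. It lay in chr16:46398766-46399065, next to the centromere of chromosome 16, and here the capitals mark GGAAT, the pentamer of classical human satellite DNA.

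Satellite on chromosome 16: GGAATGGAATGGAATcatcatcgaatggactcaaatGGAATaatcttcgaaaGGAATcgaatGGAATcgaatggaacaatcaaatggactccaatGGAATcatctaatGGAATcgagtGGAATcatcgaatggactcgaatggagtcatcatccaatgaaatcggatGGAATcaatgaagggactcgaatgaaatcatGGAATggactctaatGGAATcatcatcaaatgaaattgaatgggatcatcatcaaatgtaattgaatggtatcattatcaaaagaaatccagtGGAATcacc

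The wide peaks were 2500 to 3874 bp long with a median of 2697 bp (2667 to 2719), compared with a median of 654 bp (650 to 658) for the 94195 narrower peaks. Together they covered 1.19 Mb, or 1.58% of the length under SMC1 peaks. Of the members, 50 reached 3000 bp and 5 reached 3500 bp. The fold enrichment at the summit, the ratio of the signal to the local background, had a median of 4.72 (4.52 to 4.83) and ran from 2.32 to 10.5. Among narrower peaks its median was 3.30 (3.29 to 3.31) and it reached 24.6. The -log10 q-value had a median of 71.1 (65.3 to 77.2) in wide peaks and 13.5 (13.3 to 13.7) in narrower ones. Width and both signal measures come from the same reads, so these values only describe what was selected. The median fold enrichment did not follow the width throughout. It was 2.62 under 500 bp, 4.89 from 1000 to 1499 bp and 5.40 from 1500 to 1999 bp, and then 5.12 from 2000 to 2499 bp and 4.72 in the wide peaks.

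**Figure D1:**
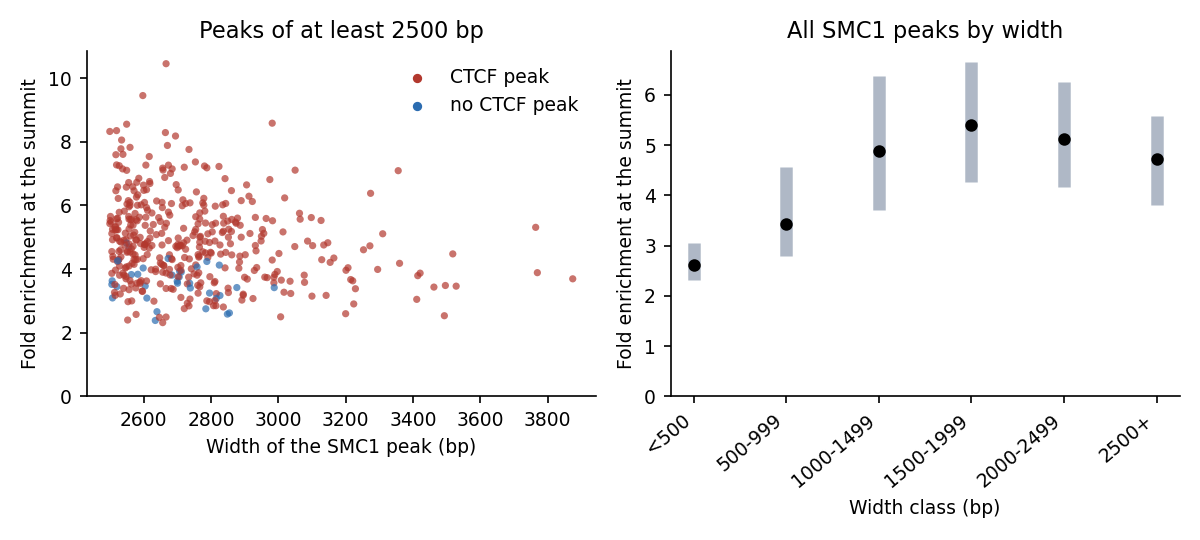
Left, the fold enrichment at the summit (ratio to local background) of each of the 433 wide SMC1 peaks against its width in bp, with the 35 members that overlap no CTCF peak in blue. Right, the median (point) and quartiles (bar) of the fold enrichment for all SMC1 peaks by width class, where the medians peak at 5.40 from 1500 to 1999 bp.

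Around the threshold the peaks formed a continuum. The 3 members nearest to it were 2500 bp (26185 bp from the start of TPD52L3, fold enrichment 8.32), 2500 bp (in an intron of RIN3, 5.43) and 2501 bp (between genes, 5.53). The 3 peaks just below it were 2499 bp (768 bp from the start of MIR129-1, 5.53), 2499 bp (427 bp from the start of PDXK, 4.16) and 2498 bp (575 bp from the start of CYP51A1, 4.75). Each of these 6 peaks overlapped 1 or 2 CTCF peaks.

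The 10 widest members lay in or near genes of various roles. The widest, chr5:151123388-151127261, was 3874 bp long in ANXA6, a calcium-dependent membrane-binding annexin, with a fold enrichment of 3.69, 1 CTCF peak, 4 loops labelled SMC1 and 6 labelled CTCF. Pairs of loop numbers are given in this order from here on. The second, chr3:119597593-119601361, was 3769 bp long and had its summit 248 bp from a start of PLA1A, a phospholipase that acts on phosphatidylserine, with 1 CTCF peak and 1 and 3 loops. Its strongest loop in the list labelled CTCF had 154 read pairs where the loop caller MAPS expected 62.9. It reached 35 kb to the left to an anchor centred 2887 bp from the start of CD80, a costimulatory ligand of B cells. The only loop labelled SMC1 reached 75 kb to the right, to an anchor centred 95 bp from the start of COX17 (23 read pairs, 4.82 expected). The third, chr20:35992573-35996336, was 3764 bp long in CNBD2 and held 3 CTCF peaks and 14 and 13 loops.

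The member in LINC02694, chr15:38688613-38692140, was 3528 bp long and had 7 and 15 loops. Its nearest coding gene was RASGRP1, a Ras activator of lymphocytes, at 125376 bp. A member of 3518 bp, chr20:38872650-38876167, lay in an intron of PPP1R16B, a regulatory subunit of protein phosphatase 1. A member of 3496 bp, chr18:3593480-3596975, had its summit in an exon 23 bp from a start of the antisense gene DLGAP1-AS1 and had 3 and 15 loops.

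The seventh widest, chr1:155959083-155962575, had its summit in a noncoding exon of ARHGEF2, and its fold enrichment of 2.53 was the lowest of these 10. The eighth, chr4:38759056-38762517, lay between genes with TLR10, a Toll-like receptor of B cells, as the nearest coding gene at 16677 bp, and held 2 CTCF peaks and 7 and 17 loops. The ninth, chr12:47741362-47744782, had its summit 62 bp from a start of RAPGEF3, a cAMP-activated exchange factor, and held 2 CTCF peaks and 6 and 9 loops. The tenth, chr12:85027629-85031042, lay in an intron of TSPAN19 with 2 CTCF peaks and no loop in the list labelled SMC1. All 10 thus overlapped a CTCF peak, and their fold enrichments of 2.53 to 5.31 did not reach those of the most enriched members.

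The 5 members with the highest fold enrichment were 2520, 2550, 2598, 2667 and 2982 bp long, and 4 of them were narrower than the median member. The one near POU3F2, a transcription factor of the nervous system, had a fold enrichment of 10.5, 2 CTCF peaks and 0 and 4 loops. The one near TMEM244 had 9.45, 2 CTCF peaks and 0 and 5 loops, and a member 5236 bp from the start of SH3TC1, chr4:8175748-8178297, had 8.55, 1 CTCF peak and 0 and 4 loops. In an intron of ECE1, the endothelin-converting enzyme, chr1:21254265-21256784 had a fold enrichment of 8.35, 1 CTCF peak and 13 and 16 loops.

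The satellite member, chr16:46398581-46401562, had a fold enrichment of 8.58 and a -log10 q-value of 532, the highest of all members. It overlapped 2 CTCF peaks, and neither loop list had an anchor there. The letters GGAAT or ATTCC covered 22.97% of its bases, compared with a median of 0.904% and at most 3.02% in the other members. Whether reads from many copies of the repeat were placed here was not tested. Without it the shares, means and medians recomputed for the members stayed within their intervals. Leaving out a single member of 433 could hardly move them, so this was no check of the repeat.

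CTCF was present in most wide peaks. At least 1 CTCF peak overlapped 398 of 433 (91.9%, 89.0 to 94.1), compared with 46.8% (46.5 to 47.1) of narrower peaks, a difference of 45.1 percentage points (42.1 to 47.3). The difference had the same sign on 22 of 22 chromosomes. Narrower peaks of the same significance, with a -log10 q-value between the quartiles of the wide peaks (42.1 to 115.7), had a CTCF peak in 90.6% (90.1 to 91.0), and the difference from the wide peaks was 1.35 points (-1.64 to 3.61). Against narrower peaks of the same fold enrichment (3.81 to 5.57) it was 21.2 points (18.1 to 23.5). Only the narrower peaks were limited to these ranges, here and below, and all 433 wide peaks were kept. The share near the summit was not at its highest in the wide class. A CTCF peak lay within 250 bp of the SMC1 summit in 83.8% (80.1 to 87.0) of wide peaks and in 89.2% (88.7 to 89.7) of narrower peaks of the same significance, a difference of -5.34 points (-9.14 to -2.13).

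The wide peaks differed from narrower ones in the number of CTCF peaks. There was no CTCF peak in 35, 1 in 224, 2 in 154, 3 in 19 and 4 in 1, with a mean of 1.37 (1.30 to 1.44) compared with 0.491 (0.488 to 0.495) in narrower peaks. At least 2 were found in 40.2% (35.7 to 44.9) of wide peaks, in 2.27% of narrower peaks and in 6.42% of narrower peaks of the same significance. A longer interval has more room, and per kb the wide peaks held 0.497 CTCF summits (0.473 to 0.521) and the narrower ones 0.602 (0.597 to 0.608). In a window of equal length for all, 1250 bp on either side of the SMC1 summit, at least 2 CTCF summits were found in 22.4% (18.7 to 26.6) of wide peaks, 7.60% of all narrower peaks and 13.9% of those of the same significance. The excess over the last group was 8.50 points (4.78 to 12.7). Over peaks of 2000 to 2499 bp, of which 18.6% (16.9 to 20.4) held at least 2, it was 3.85 points (-0.251 to 8.33), an interval that includes 0.

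**Figure D2:**
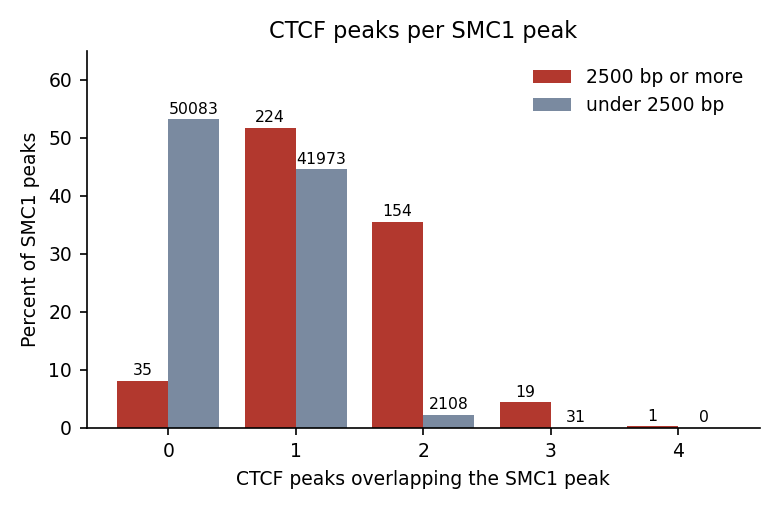
The percent of wide (red, n = 433) and narrower (grey-blue, n = 94195) SMC1 peaks that overlap 0 to 4 CTCF peaks, with the number of peaks above each bar. Of the wide peaks 174 overlap 2 or more, and among narrower peaks the share with 2 or more is 2.27%.

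In the 174 members with several CTCF peaks the outermost CTCF summits were 1448.5 bp apart in the median (1232 to 1655) and at most 2770 bp. In narrower peaks with several the median was 802 bp (792 to 812), but this distance is bounded by the peak width that chose the members, so the contrast is no finding. The strongest CTCF peak of each such member had a median fold enrichment of 7.05 (6.50 to 7.46), and the others had 3.47 (3.17 to 3.83). Members with a single CTCF peak had a CTCF fold enrichment of 8.27 (7.61 to 8.69). The gap between the strongest and the others is partly set by this sorting. All 590 CTCF peaks with a summit in wide peaks had a median of 6.02 (5.65 to 6.35), compared with 6.32 (6.27 to 6.38) for those in narrower SMC1 peaks and 3.29 (3.27 to 3.31) for those outside SMC1 peaks. A motif match was found in 40.8% (37.0 to 44.9), 41.3% (40.9 to 41.8) and 20.6% (19.9 to 21.2) of these CTCF peaks, and in 6.58% of windows 1000 bp away.

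The SMC1 summit of most members lay close to CTCF. Where a member held a CTCF summit, the nearest was 46.5 bp from the SMC1 summit in the median (40 to 53), and in 268 of 398 (67.3%) it was within 100 bp. In narrower peaks the median was 49 bp (48 to 49), and 71.9% of 42949 were within 100 bp. The upper quartile of this distance was 213.5 bp in wide and 115 bp in narrower peaks. Only CTCF summits inside the peak were counted, so a wider peak allows larger distances. The SMC1 summit of wide peaks was off centre by 39.6% (36.5 to 43.9) of the distance from its middle to its edge in the median, compared with 34.1% (33.8 to 34.3) in narrower peaks.

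The member with the most CTCF peaks, chr7:25892910-25895841, lay between genes with NFE2L3, a transcription factor of the stress response, as its nearest coding gene at 256685 bp. It was 2932 bp long and had 8 and 23 loops. From left to right the fold enrichments of its 4 CTCF peaks were 4.81, 2.54, 2.36 and 10.8. The outer 2 carried motif matches of 17.6 and 15.7 bits on opposite strands, forward on the left and reverse on the right, and the inner 2 carried none of at least 10 bits. Both sites are shown (hg38, plus strand) because together they mark the ends of this interval, at chr7:25892993-25893031 and chr7:25895514-25895552.

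Left site: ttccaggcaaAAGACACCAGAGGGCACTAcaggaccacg
Right site: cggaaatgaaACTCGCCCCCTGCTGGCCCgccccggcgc

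The 4 longest of the members with 3 CTCF peaks followed. In CNBD2 the 3 CTCF summits spanned 2106 bp. The member at chr2:47173579-47176888 had its summit 321 bp from the start of CALM2, a gene of the calcium sensor calmodulin, with 0 and 7 loops. The member at chr5:173820999-173824152 lay between genes, 67088 bp from CPEB4, which controls translation from mRNA tails, with 0 and 12 loops. The member at chr2:231612336-231615464 lay 20120 bp from TEX44 with 8 and 11 loops. Of 23 members with 2 motif matches, the matches were both forward in 6, both reverse in 8, reverse then forward in 7 and forward then reverse in 2.

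Loops were counted for the bins that a peak touches. MAPS, the loop caller, took HiChIP peaks as input, so peaks and loops are not independent, and the sizes of both loop lists are the reverse of what the study gives for the targets, so the labels may be exchanged. Both lists are given throughout. On the autosomes they held 27785 loops (labelled SMC1) and 79406 loops (labelled CTCF).

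Wide peaks were anchors more often than narrower ones in both lists. In the list labelled SMC1, 279 of 433 (64.4%, 59.8 to 68.8) were at an anchor, compared with 22.1% (21.8 to 22.4) of narrower peaks. For the loops labelled CTCF it was 394 of 433 (91.0%, 87.9 to 93.3), compared with 51.2% (50.9 to 51.5). The differences were 42.3 points (37.7 to 46.7) and 39.8 points (36.7 to 42.1) and had the same sign on 22 of 22 chromosomes. Against narrower peaks of the same significance they were 25.9 points (21.2 to 30.4) and 9.13 points (6.004 to 11.6). Against peaks of 2000 to 2499 bp they were 9.40 points (4.27 to 14.3) and 2.06 points (-1.28 to 4.84), and the second interval includes 0. Of the members 276 were at anchors of both lists, 3 in the list labelled SMC1 alone, 118 in the list labelled CTCF alone and 36 in neither.

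**Figure D3:**
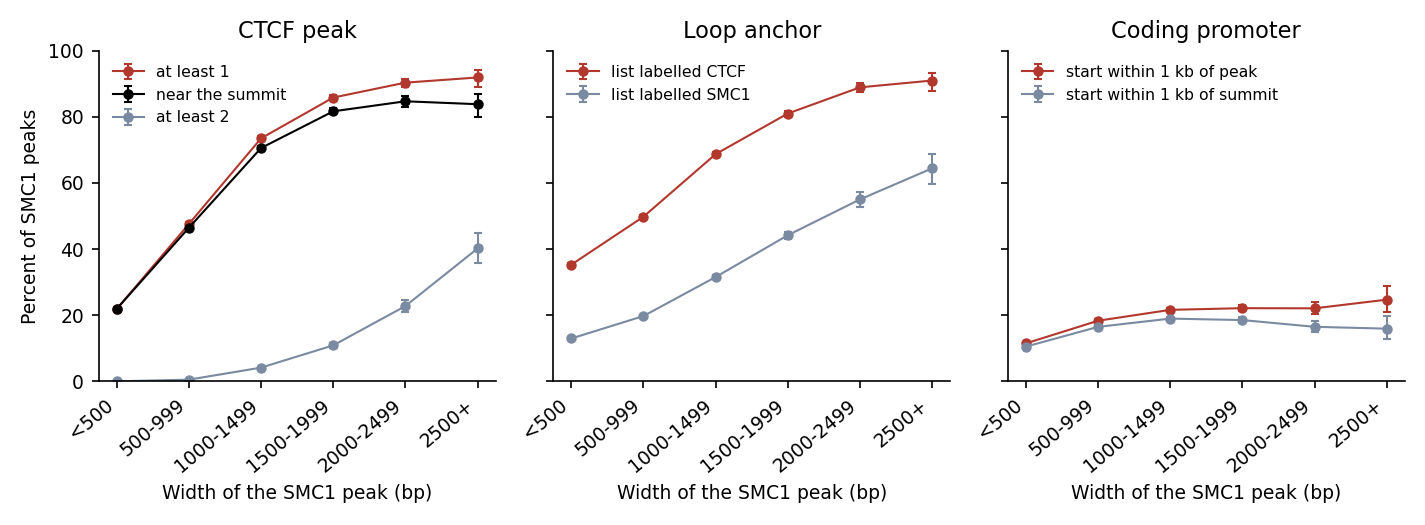
The percent of SMC1 peaks in 6 width classes (bp) with a CTCF peak (left), at a loop anchor of either list (middle) and with a coding start nearby (right), with 95% intervals. From the narrowest to the wide class the share at anchors goes from 12.96% to 64.4% (labelled SMC1) and from 35.3% to 91.0% (labelled CTCF), and the share with a coding start within 1 kb of the summit ends at 15.9%.

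The number of loops differed as well. A wide peak had a median of 1 loop (1 to 2) labelled SMC1 and 6 (5 to 7) labelled CTCF, compared with 0 and 1 for narrower peaks and 0 and 2 for those of the same significance. More wide peaks touched 2 bins, 231 of 433 compared with 15.8% of narrower peaks. In the bin of the summit alone the means were 2.25 (1.90 to 2.60) and 6.15 (5.66 to 6.65) for wide peaks, 0.577 (0.565 to 0.590) and 1.67 (1.65 to 1.69) for narrower peaks and 0.944 (0.910 to 0.977) and 3.005 (2.95 to 3.05) for those of the same significance. At least 10 loops were anchored at 26 (6.005%, 4.13 to 8.65) and 137 (31.6%, 27.4 to 36.2) wide peaks, compared with 1.06% and 3.75% of narrower peaks. Among peaks of 2000 to 2499 bp the shares were 4.38% and 20.0%. The differences from these were 1.63 points (-0.503 to 4.40), an interval that includes 0, and 11.7 points (7.07 to 16.5).

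The number of loops was lower in members without CTCF. The 35 without a CTCF peak lay at such an anchor (labelled SMC1) in 25.7% (14.2 to 42.1), compared with 65.2% (58.7 to 71.1) of those with 1 and 71.4% (63.8 to 78.0) of those with 2. In the list labelled CTCF the shares were 71.4% (54.9 to 83.7), 91.5% (87.1 to 94.5) and 93.5% (88.5 to 96.4). The median number of loops in that list was 2 (1 to 4) without a CTCF peak, 6 (5 to 8) with 1, 8 (6 to 9) with 2 and 7 (5 to 11) with 3 or 4, and the last 3 intervals overlap. Narrower peaks showed the same order. Without a CTCF peak 12.7% (labelled SMC1) and 38.6% (labelled CTCF) were at an anchor, and with 1 it was 32.5% and 64.97%. MAPS keeps loops with a peak of the target at 1 anchor or more. In the list called from CTCF peaks, bins without one are thus at a disadvantage by construction. How much this adds to the difference was not tested.

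**Figure D4:**
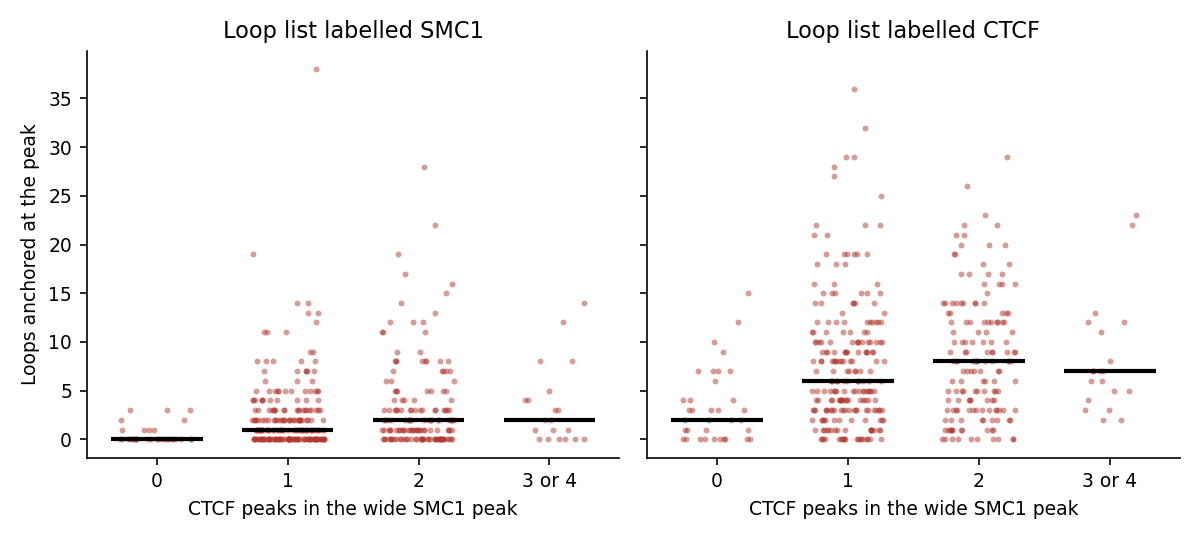
Loops anchored at each of the 433 wide SMC1 peaks (points, spread sideways at random) by the number of CTCF peaks it overlaps, for the loop lists labelled SMC1 (left) and CTCF (right), with medians as lines. The medians are 0, 1, 2 and 2 on the left and 2, 6, 8 and 7 on the right.

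The members with the most loops were found both at gene starts and between genes. The member at chr8:125429734-125432467 had its summit in TRIB1, 316 bp from a start of this pseudokinase, and had 38 loops labelled SMC1, more than any other member, and 32 labelled CTCF. Its strongest loop reached 315 kb to the left, towards the start of NSMCE2, with 78 read pairs (8.16 expected) in the list labelled SMC1 and 252 (28.7 expected) in the list labelled CTCF. The member at chr2:230984068-230986621, in an exon of SPATA3-AS1, had 28 and 20 loops. The strongest of them reached 85 kb to the left with 112 read pairs (16.3 expected) and 366 (56.5 expected).

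The member at chr22:37198367-37201068 had its summit 119 bp from a start of C1QTNF6 and had 22 and 26 loops. Its strongest loop in the list labelled CTCF, of 199 read pairs (74.6 expected), ended 7553 bp from the start of IL2RB, a subunit of the interleukin-2 receptor. In the list labelled SMC1 its strongest loop, of 89 read pairs (35.9 expected), went to the right and ended 5024 bp from the start of SSTR3. The members at chr15:70486299-70488994, between genes, and chr1:23635418-23638074, in an intron of MDS2, had 19 loops labelled SMC1 each. The strongest loop of the MDS2 member reached 95 kb to the left, to an anchor centred 11268 bp from the start of E2F2, a cell cycle transcription factor, with 319 read pairs (28.2 expected) and 666 (43.3 expected). In the list labelled CTCF the highest number, 36, was at chr11:48107504-48110522, whose summit lay in a coding exon of PTPRJ, a receptor tyrosine phosphatase. After the TRIB1 member, 3 members had 29 loops each. They lay at chr2:64325427-64328633, 125842 bp from LGALSL, at chr20:48903823-48906347, 16605 bp from ARFGEF2, and at chr12:92568727-92571243, 132620 bp from PLEKHG7.

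The loops of wide peaks were somewhat longer than the others. Those with a wide peak at an anchor made up 4.11% of the list labelled SMC1 and 4.10% of the list labelled CTCF. Their median span was 140 kb (135 to 145) and 145 kb (140 to 150), compared with 130 kb (125 to 130) and 125 kb (125 to 125) for the other loops. Their read pairs over expected were 4.08 (3.95 to 4.23) and 3.77 (3.70 to 3.85), compared with 3.99 (3.97 to 4.02) and 4.04 (4.02 to 4.06). The opposite anchor held a coding promoter in 25.6% (23.1 to 28.2) and 21.0% (19.7 to 22.5), compared with 28.3% (27.9 to 28.7) and 24.4% (24.2 to 24.7) of the anchors of other loops. A CTCF peak was at the opposite anchor in 75.7% (73.2 to 78.1) and 60.04% (58.4 to 61.7), compared with 78.6% (78.3 to 79.0) and 71.4% (71.2 to 71.6). For wide peaks only the far end of each loop was counted, and for the other loops both ends were. The shares at opposite anchors therefore compare unlike sets. Loops share anchors, so they are not independent of each other.

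Few loops joined 2 wide peaks, 11 labelled SMC1 and 28 labelled CTCF. The strongest in the list labelled SMC1 linked the members beside the starts of DCAF1, a substrate receptor of a ubiquitin ligase, and TEX264, a receptor for autophagy of the endoplasmic reticulum, over 165 kb with 56 read pairs (10.5 expected) and with 170 (13.6 expected) in the list labelled CTCF. The left member carried a forward and the right a reverse match. A loop of 105 kb linked the member at chr19:6631589-6634140, whose nearest coding gene is the B cell activation ligand CD70, with the member at the starts of TRIP10 and GPR108 (48 read pairs, 18.5 expected, and 183, 44.3 expected). The strongest in the list labelled CTCF, 253 read pairs with 61.0 expected, joined the member at the start of IRF8 with another 85 kb to the right.

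The strand of the CTCF match went with the side on which the loops lay. A match on 1 strand alone was found in 88 members (forward) and 121 (reverse), 9 had both and 215 had none. Of the forward members with unequal sides in the list labelled CTCF, 85.4% (76.1 to 91.4) had more loops towards higher coordinates, as had 85.1% (84.2 to 85.9) of forward narrower peaks. Of the reverse members 88.4% (81.1 to 93.1) had more towards lower coordinates, as had 84.5% (83.6 to 85.4) of reverse narrower peaks. In the list labelled SMC1 these shares were 83.8% (73.3 to 90.7) and 90.5% (82.3 to 95.1) in wide peaks. Members without a match had more loops towards higher coordinates in 47.0% (39.8 to 54.2, labelled CTCF) and 42.2% (33.4 to 51.6, labelled SMC1). Narrower peaks had 82.2% (80.9 to 83.4, forward) and 83.3% (82.0 to 84.5, reverse) in the list labelled SMC1. Without a match they had 50.7% (50.2 to 51.2, labelled CTCF) and 51.6% (50.7 to 52.4, labelled SMC1). The intervals of wide and narrower peaks overlapped for each kind of match, and no test was made.

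**Figure D5:**
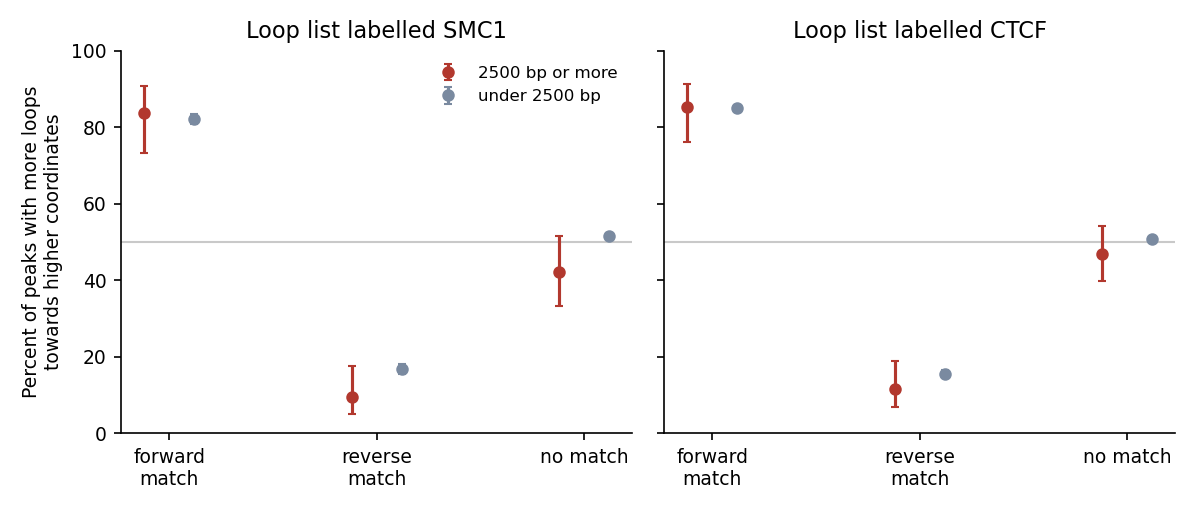
The percent of SMC1 peaks with more loops towards higher than towards lower coordinates, by the strand of the CTCF motif match, for wide (red) and narrower (grey-blue) peaks with 95% intervals. Peaks with equal numbers are left out. In the list labelled CTCF (right) the wide peaks sit at 85.4% for forward, 11.6% for reverse and 47.0% without a match.

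Wide peaks were near promoters more often than narrower ones when the whole peak was counted, and by the summit the interval of the difference included 0. A start of a protein-coding transcript lay within 1 kb of the peak in 107 of 433 (24.7%, 20.9 to 29.0), compared with 16.8% (16.6 to 17.05) of narrower peaks, a difference of 7.91 points (4.07 to 12.2). A wider peak reaches more starts. Within 1 kb of the summit the shares were 15.9% (12.8 to 19.7) and 14.9% (14.7 to 15.1), a difference of 1.02 points (-2.13 to 4.78). Against narrower peaks of the same significance the share by the whole peak differed by 1.54 points (-2.35 to 5.87) and that by the summit by -4.81 points (-8.03 to -1.01). By the summit it was -6.23 points (-9.43 to -2.45) against narrower peaks of the same fold enrichment. The share by the summit of all wide peaks was thus below that of either group matched in significance or fold enrichment. Among peaks of 2000 to 2499 bp it was 16.5% (14.9 to 18.2). The difference from these was -0.564 points (-4.16 to 3.51), an interval that includes 0. The summit was in an intron in 224 members (51.7%, 47.0 to 56.4), between genes in 141 (32.6%, 28.3 to 37.1), in a UTR exon in 31, in a noncoding exon in 28 and in a coding exon in 9. CTCF overlapped the members at promoters (90.7%, 83.6 to 94.8) about as often as the others (92.3%, 88.9 to 94.8), and their median of loops labelled CTCF was 5 (3 to 6) compared with 7 (6 to 8).

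A wide peak lay within 1 kb of a start of 127 of 18773 protein-coding genes (0.677%), and in or within 1 kb of 335 (1.78%). Of the B cell markers 1 of 10 had one at a start, and none of the 13 T cell, 11 myeloid or 14 non-blood markers did. Among lineage transcription factors of B cells it was 2 of 30, among genes of the NF-kappaB pathway 2 of 12, among genes of B cell signalling and activation 1 of 20 and among housekeeping genes 2 of 20. None of 12 cohesin and CTCF genes had one, although all 12 had a narrower SMC1 peak. The MHC genes were not analysed here. Each of these counts rests on at most 2 genes, and no test was made.

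The B cell marker was BLK, a Src-family kinase of the B cell receptor. Its peak, chr8:11491880-11495094, was 3215 bp long with a fold enrichment of 3.67, 2 CTCF peaks and 5 loops in each list. The 2 transcription factors were IRF8, which directs B cell and myeloid development, and ETS1. The IRF8 peak, chr16:85902288-85904880, had 2 CTCF peaks and 3 and 9 loops, and the ETS1 peak, chr11:128520323-128522887, had 2 CTCF peaks and 0 and 2 loops. RUNX1 and RUNX3, which regulate blood cell fate, held a wide peak inside the gene.

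In the NF-kappaB pathway, TNFAIP3 encodes the inhibitor A20. Its peak, chr6:137867041-137869969, had its summit 15 bp from a start, a fold enrichment of 3.96, 2 CTCF peaks and 11 and 12 loops. The strongest reached 160 kb to the left with 55 read pairs (10.8 expected) and 299 (41.5 expected). NFKBIZ, an inducible nuclear regulator of NF-kappaB, shared its peak at chr3:101827003-101829687 with NXPE3, and this peak overlapped no CTCF peak and had 1 and 2 loops. The peak of CD86, the costimulatory ligand of activated B cells, at chr3:122075891-122078611 had a fold enrichment of 2.76, 1 CTCF peak and 2 and 5 loops.

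The housekeeping genes were EEF1A1, the translation elongation factor, and LDHA, lactate dehydrogenase. The EEF1A1 peak, chr6:73520656-73524066, was 3411 bp long with a fold enrichment of 3.05, 2 CTCF peaks and 0 and 8 loops. The LDHA peak, chr11:18394068-18396573, was 2506 bp long with 4.55, 2 CTCF peaks and 1 and 2 loops. The opposite anchor of its strongest loop in the list labelled CTCF was centred 66 bp from the start of GTF2H1, a subunit of a general transcription factor. That of its only loop labelled SMC1 (12 read pairs, 2.29 expected) was centred 3454 bp from the start of MRGPRX3.

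Some genes were the nearest coding gene of more than 1 member, which was seen only after the values were known. PIK3R1, the regulatory subunit of PI3-kinase, and SLC39A10, a zinc importer, had 3 each, and ANXA2R, CPEB4, GOLPH3, IRF8, NEDD9, PRKCE, TET2 and XKR5 had 2 each. At PIK3R1 2 members lay in introns and the third 140506 bp away, with 0, 5 and 2 loops labelled SMC1 and 1, 16 and 10 labelled CTCF. At SLC39A10 one member was at the start with 3 and 14 loops, and the other 2 lay 14399 and 257425 bp away with 1 and 5 and with 0 and 3. The median distance between neighbouring members was 3311 kb (2839 to 4035), and 16 of 411 gaps were under 100 kb. So few members lie far apart by number alone, and no background for this spacing was computed. Each chromosome had 7 to 51 members, or 2.64 (chromosome 9) to 6.79 (chromosome 21) per 1000 SMC1 peaks.

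The 35 members without a CTCF peak had a lower fold enrichment, 3.56 (3.42 to 3.84), and a -log10 q-value of 33.1 (26.5 to 45.0), at a median width of 2700 bp. The most significant was chr1:230122689-230125245 in an intron of GALNT2, a glycosyltransferase, with a fold enrichment of 4.69 and 3 and 9 loops. The next, chr17:72463570-72466357, had its summit 47 bp from a start of the noncoding gene LINC00511, a fold enrichment of 4.24 and 0 and 12 loops. The third, chr4:83217311-83220187, lay between genes, 66774 bp from COQ2, an enzyme of coenzyme Q synthesis, with 3 and 7 loops. The fourth, chr4:152552305-152555041, lay 18314 bp from FBXW7, the substrate receptor of a ubiquitin ligase, with 0 and 3 loops. The fifth, chr1:111599878-111602704, lay in an intron of RAP1A, a small GTPase, with 0 and 7 loops. A coding start lay within 1 kb of 28.6% (16.3 to 45.1) of the 35.

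Around the summits GC content was close to that of narrower peaks. The CpG ratio was higher than in all narrower peaks, but not higher than in those of the same significance. GC content in 300 bp had a median of 47.0% (45.7 to 48.3) in wide and 46.0% (46.0 to 46.0) in narrower peaks, and the ratio of observed to expected CpG was 0.279 (0.259 to 0.299) and 0.225 (0.223 to 0.226). In narrower peaks of the same significance this ratio was 0.286 (0.281 to 0.290). At promoters the wide peaks had 55.3% GC (52.0 to 58.3) and a CpG ratio of 0.449 (0.385 to 0.633), and elsewhere 45.0% (43.7 to 46.0) and 0.258 (0.237 to 0.277). Narrower peaks at promoters had 57.7% GC (57.3 to 58.0) and a CpG ratio of 0.619 (0.611 to 0.626). Elsewhere the narrower peaks had 44.7% (44.3 to 44.7) and 0.196 (0.195 to 0.198). Short words were searched on both strands of the same windows. The CTCF core AGGNGGC was in 29.3% (25.2 to 33.8) of wide, 24.9% (24.6 to 25.2) of narrower peaks and 33.3% (32.5 to 34.0) of those of the same significance. In the 35 members without a CTCF peak it was in 14.3% (6.26 to 29.4).

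For factors of B cells the shares in wide and narrower peaks had overlapping intervals. GAGGAAG, the word of PU.1, was in 9.93% (7.46 to 13.1) and 11.3% (11.1 to 11.5), TGTGGT of RUNX in 18.7% (15.3 to 22.6) and 21.2% (21.0 to 21.5), and TGANTCA of AP-1 in 8.78% (6.46 to 11.8) and 10.9% (10.7 to 11.1). CACGTG, the E-box, was in 5.54% (3.75 to 8.11) and 4.34% (4.21 to 4.47), ATGCAAAT, the octamer, in 3.70% (2.29 to 5.92) and 2.61% (2.51 to 2.71), and CCGGAAG of ETS in 2.77% (1.59 to 4.78) and 2.45% (2.36 to 2.55). The words of PU.1 and ETS share the letters GGAAG. A word is a match of letters in this window and not a bound site.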

How the data were processed

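HG00731 SMC1 FA-EGS HiChIP and CTCF HiChIP were used, with 2 biological replicates each. The authors aligned reads to hg38 (MapQ over 30, duplicates removed), pooled the replicates and called peaks with MACS3 3.0.1 (q-value 0.01, no model, extension size 200 bp, no input). The authors deposited for each peak the fold enrichment, a ratio to the local background, and the -log10 of its p-value, which was not used, and q-value. In the loop lists the authors deposited raw counts of read pairs per pair of 5 kb bins from MAPS, a score that MAPS expects for each, and a false discovery rate and p-value, which were not used. Depth per replicate is unknown here.

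Overlaps needed 1 bp. A promoter meant a coding-transcript start (GENCODE release 44) no more than 1 kb away. A motif of 19 bp (15.2 bits) was learned from the 3000 strongest CTCF summits on odd autosomes by expectation maximization, and matches of at least 10 bits within 150 bp of a summit were kept. Shares carry Wilson intervals, differences of shares Newcombe intervals, medians rank intervals and means normal intervals, at 95%. Genes and regions were named by rank: the 10 widest members, the 5 with the highest fold enrichment, the most CTCF peaks, the most loops in each list and the highest -log10 q-value without a CTCF peak, 3 on either side of the threshold, and members at listed genes. The members and gene lists were chosen with earlier results of these data known. The procedures were tested on simulated data. The alternatives are in the closing section. Computations used pysam 0.24.0, pandas 2.3.3 and NumPy 2.4.6 under Python 3.11.15, intervals SciPy 1.17.1 and plots Matplotlib 3.10.9.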

Additional observations from a re-analysis of the deposited data

How the results depend on the processing

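No paired analysis was possible because each target has 1 pooled list. Of 107 alternative values 68 stayed within the 95% interval of the value given and 39 left it. The differences alone could change sign, because shares, means and medians cannot be negative, and 0 of them did. Each alternative value changed a single setting, and combined settings could reverse a difference. By the summit, against narrower peaks of the same significance, it was -4.81 points (promoter) and -5.34 points (CTCF peak within 250 bp). Against those of the same fold enrichment it was -6.23 and 15.1 points. Against peaks of 2000 to 2499 bp it was -0.564 and -0.879 points, and both intervals included 0. With a threshold of 2000 bp the share at anchors of loops labelled SMC1 was 56.8% (35.4 points above narrower peaks) and the mean of CTCF peaks 1.18. With 3000 bp, which left 50 members, the coding promoter share was 32.0% (15.2 points above), the CTCF share 100% (53.0 points), the anchor shares 82.0% (59.7 points, labelled SMC1) and 96.0% (44.6 points, labelled CTCF), the mean of CTCF peaks 1.64 and the median loops 3 and 9.5. Among SMC1 peaks whose -log10 q-value reached 10 the differences were 2.29 (promoter), 24.4 (CTCF), 34.6 and 25.9 points (anchors).

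For the promoter, a start inside the peak gave a difference of 12.4 points, a start near the summit 15.9% (1.02 points) and starts of all genes 39.0% (12.5 points). For CTCF, a peak within 250 bp of the summit gave 83.8% (38.4 points), CTCF peaks whose -log10 q-value reached 10 gave 84.1%, and a CTCF summit within 1250 bp, chosen after seeing the data, gave 86.8% (35.4 points) and a mean of 1.10. Per kb the mean was 0.497. Loops with at least the median read pairs gave medians of 0 and 4. Against narrower peaks in the same range of -log10 q-value the differences were 1.54 (promoter), 1.35 (CTCF), 25.9 and 9.13 points (anchors labelled SMC1 and CTCF), and in the same range of fold enrichment 0.282 (promoter), 21.2 (CTCF) and 33.9 points (anchors labelled CTCF). The causes were not tested. The share of soft-masked repeats was not run, because the reference used here is in upper case.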
